A study of Homo sapiens with 20 samples.

Results

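RPPH1, RMRP, RN7SL1 and RN7SL2 encode short, structured noncoding RNAs, and their read counts were examined in every condition of an RNA-seq study of EHMT1, a histone H3K9 methyltransferase, in prostate cancer cells. They were taken as the rows of both count tables that carry these 4 symbols, 4 of 57773 rows in each table. RNA came from LNCaP, an androgen receptor-positive human prostate cancer line grown in RPMI medium with serum. In the first table, LNCaP cells were transfected for 2 days with 20 nM of a nontarget siRNA pool (siNTC) or of a pool against EHMT1 (siEHMT1), with 2 samples each. In the second, 4 LNCaP lines carrying a tetracycline-inducible EHMT1 (WT, K450R, K451R or K450RK451R, in which 1 or both lysines are replaced by arginine) were kept with vehicle (Veh, given as untreated in the treatment label) or with 0.25 µg/mL of doxycycline (Dox) for 2 days, and each of the 8 conditions has 2 numbered columns. Each line is a single puromycin-selected lentiviral line that still holds its own EHMT1, so a difference between lines is not one between mutations. No line without the transgene was treated, so the effects of doxycycline and of induced EHMT1 cannot be told apart.

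As background, all 4 RNAs are made by RNA polymerase III. RPPH1 is the RNA of ribonuclease P, which removes the leader of tRNA precursors, and RMRP is the RNA of ribonuclease MRP, a related enzyme with largely the same protein subunits that acts on ribosomal RNA precursors. RN7SL1 and RN7SL2 are near-identical genes for 7SL, the RNA of the signal recognition particle (SRP), which brings ribosomes making secreted and membrane proteins to the endoplasmic reticulum. The promoters of RPPH1 and RMRP lie upstream of the gene, whereas 7SL genes also use sequence inside the gene.

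The likeness of the 2 7SL genes sets how far the counts of RN7SL1 and RN7SL2 can be separated. In GRCh37, the build of the files, RN7SL2 (ENSG00000265150) lies at chr14:50329271-50329567 on the minus strand. The identifier of RN7SL1 (ENSG00000258486) was not in the annotation used here (GENCODE release 44 lifted to GRCh37), so the gene was placed by matching RN7SL2 to chromosome 14, at chr14:50053298-50053594 on the plus strand, within the span of RPS29 on the opposite strand. Both genes are 297 bases long and identical at 293 of them (98.7%). RN7SL3, a further 7SL gene at chr14:50320336-50320632, differs from RN7SL2 at 11 positions and from RN7SL1 at 7. The reads were 51 bases long, and of the 247 windows of this length in each gene, 38 in RN7SL1 (15.4%) and 31 in RN7SL2 (12.6%) occur once in the genome, counting both strands. The genes share 156 windows with each other. By contrast, each of the 588 windows of the RPPH1 row and of the 214 windows of RMRP occurs once. How reads with several matches were counted is not given in the sources used here, so the split between RN7SL1 and RN7SL2 is uncertain. Their sum is given, without a test, in the siRNA, doxycycline and line comparisons.

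**Figure D1:**
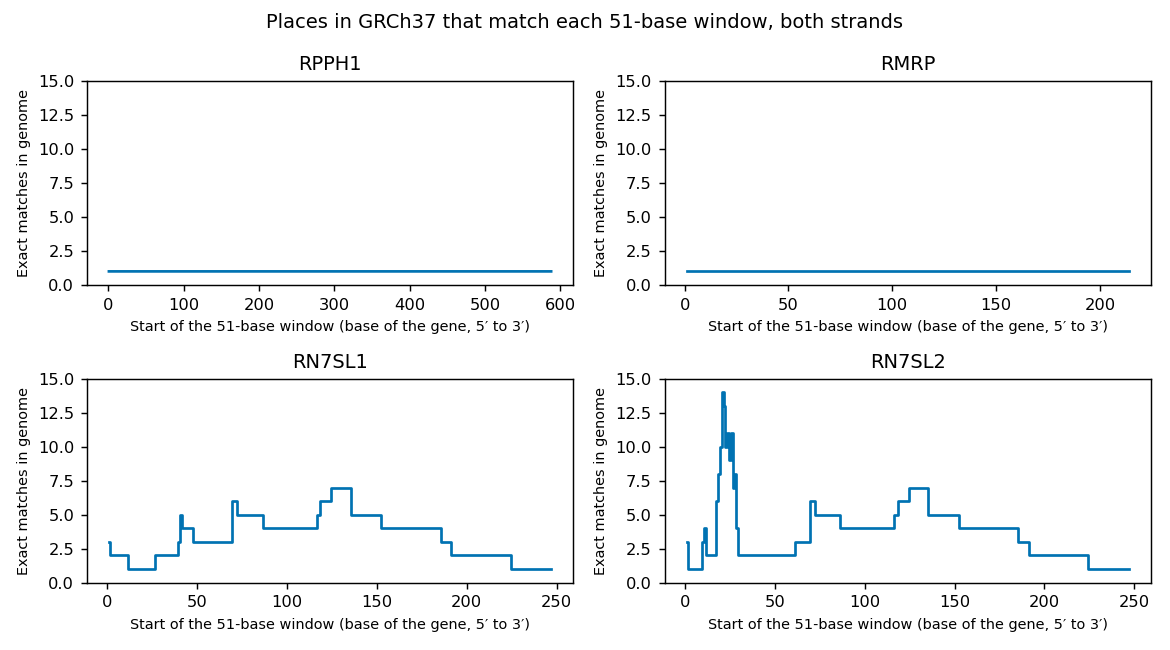
Number of exact matches in GRCh37 (both strands, y axis) of each 51-base window of the 4 genes, by the position at which the window starts (x axis, bases from the 5′ end). Every window of RPPH1 and RMRP matches 1 place, whereas windows of RN7SL1 match up to 7 places and those of RN7SL2 up to 14, and the windows at the 3′ end of both 7SL genes match 1.

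The RPPH1 identifier (ENSG00000259001) covers 638 bases in the annotation, at chr14:20811207-20811844 on the minus strand. It is typed there as a long noncoding RNA, and 71 bases of it overlap PARP2 on the opposite strand. RMRP has another identifier in the files (ENSG00000269900) than in the annotation, where it lies at chr9:35657751-35658014 on the minus strand, 264 bases long and 272 bases from CCDC107. The bases upstream of each gene are shown because the promoters of RPPH1 and RMRP lie there. Their part in any change with doxycycline was not tested. Capitals mark matches to 3 motifs searched on both strands. The TATA element was searched as TATAA. The octamer was searched as ATGCAAAT. The core of the cAMP response element was searched as TGACGT. The E-box, searched as CACGTG, was not found in any of these 4 stretches. For RPPH1 the stretch holds bases 166 to 465 of its row, which include both the upstream part and the start of the part that aligns to the pseudogene RPPH1-3P (bases 299 to 586, 77.9% identity). For the other genes it holds the 120 bases before the gene.
RPPH1, chr14:20811380-20811679: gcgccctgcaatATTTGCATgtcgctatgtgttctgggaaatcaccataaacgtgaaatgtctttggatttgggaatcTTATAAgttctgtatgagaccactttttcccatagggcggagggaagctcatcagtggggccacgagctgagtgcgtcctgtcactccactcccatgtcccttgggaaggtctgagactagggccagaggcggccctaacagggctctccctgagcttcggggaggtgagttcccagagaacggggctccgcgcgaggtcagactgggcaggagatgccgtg
RMRP, chr9:35658015-35658134: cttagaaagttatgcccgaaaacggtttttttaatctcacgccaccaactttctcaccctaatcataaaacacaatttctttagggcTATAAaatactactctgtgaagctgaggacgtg
RN7SL1, chr14:50053178-50053297: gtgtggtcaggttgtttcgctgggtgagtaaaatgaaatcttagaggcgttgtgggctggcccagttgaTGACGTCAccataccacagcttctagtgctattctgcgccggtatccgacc
RN7SL2, chr14:50329568-50329687: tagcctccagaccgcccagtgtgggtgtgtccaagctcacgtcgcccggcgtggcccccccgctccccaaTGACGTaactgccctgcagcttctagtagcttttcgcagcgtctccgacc
TATAA stood in the stretches of RPPH1 and RMRP, in RMRP at 33 to 29 bases before the gene. ATGCAAAT stood in that of RPPH1 alone, as its reverse complement, and the TATAA of RPPH1 overlaps its own reverse complement. TGACGT stood in RN7SL1 and RN7SL2, starting 51 and 50 bases before the gene, and in RN7SL1 it overlaps its own reverse complement. The RPPH1 row also holds TGACGT on both strands at bases 58 to 65, outside the stretch shown. In the 120 bases before the start of 35116 genes of the RefSeq promoter table (GRCh38), TATAA was found in 10.2%, ATGCAAAT in 0.86%, TGACGT in 4.79% and CACGTG in 3.9%, on either strand. A match is a description of the letters only.

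Depth, as the sum of all counts, ran from 5593400 to 12438006 in the siRNA samples and from 8436791 to 12407739 in the summed stable-line conditions. The columns of a stable-line condition differed by no more than counting noise (chi-square per degree of freedom 0.995 to 1.02) and were summed and counted as 1 sample. The siRNA samples of a group differed by more (6.17 and 6.58, without 2 pseudogenes that resemble ribosomal RNA). Sample siNTC 2 stood apart, with 10.0% of its counts on those 2 pseudogenes. Nothing in the labels says that samples came from separate cultures, so p-values measure the spread between these samples only. The targeted gene followed its label in both tables. EHMT1 was at 87.6 and 83.4 CPM with siNTC and at 29.2 and 30.7 CPM with siEHMT1, and at 71.6 to 88.6 CPM with Veh and 661 to 840.1 CPM with Dox. CPM are counts relative to library size, here after TMM scaling within a table unless said otherwise. The 9 LNCaP markers were all counted. Of 3 basal markers KRT5 and TP63 had no count in either table, and the list summed to at most 1.45 CPM. Of 4 neuroendocrine markers CHGA and INSM1 had none, and the list summed to at most 2.01 CPM. The 4 fibroblast markers summed to 14.7 to 19.2 CPM in the siRNA samples and 32.5 to 39.6 CPM in the stable lines, with COL1A2 at 0, and their part in the results was not tested.

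The share of all counts that fell on the 4 RNAs was compared across the 10 conditions. Together they took 2.62% to 2.91% of the counts in the 4 siRNA samples and 7.02% to 8.15% in the 8 stable-line conditions. RPPH1 took 0.818% and 0.988% with siNTC and 0.961% and 0.875% with siEHMT1. In the stable lines it stood at 3.41% in WT Veh, 4.09% in WT Dox, 3.48% in K450R Veh, 3.25% in K450R Dox, 2.83% in K451R Veh, 3.39% in K451R Dox, 3.13% in K450RK451R Veh and 3.45% in K450RK451R Dox. It was the second most counted row in all 8 stable-line conditions, and ranked 3 to 5 in the siRNA samples.

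RMRP took 0.505% and 0.453% with siNTC, 0.513% and 0.642% with siEHMT1, and 1.24% (K450RK451R Veh) to 1.46% (K451R Veh) in the stable lines. RN7SL1 took 0.586% and 0.605% with siNTC, 0.675% and 0.600% with siEHMT1, and 1.24% (K450RK451R Dox) to 1.69% (K451R Veh) in the stable lines. RN7SL2 took 0.707% and 0.813% with siNTC, 0.764% and 0.720% with siEHMT1, and 1.26% (K450RK451R Dox) to 1.66% (K451R Veh) in the stable lines. For each of the 4 RNAs, every stable-line condition was thus above every siRNA sample. The table, the cell line and the library set cannot be told apart in this difference, and it was not tested. Other abundant rows differed between the tables as well. Mitochondrial rRNA took 21.9% to 27.5% of the counts in the siRNA samples and 7.99% to 14.3% in the stable lines, 7SK (RN7SK) 0.677% to 0.715% and 1.53% to 1.93%, and small nucleolar and Cajal body RNAs together 0.0875% to 0.107% and 0.229% to 0.351%. Without mitochondrial rRNA and the 2 pseudogenes in the total, the mean share of RPPH1 was 1.27% ± 0.189 (SD, n = 4) in the siRNA samples and 3.82% ± 0.354 (SD, n = 8) in the stable lines.

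**Figure D2:**
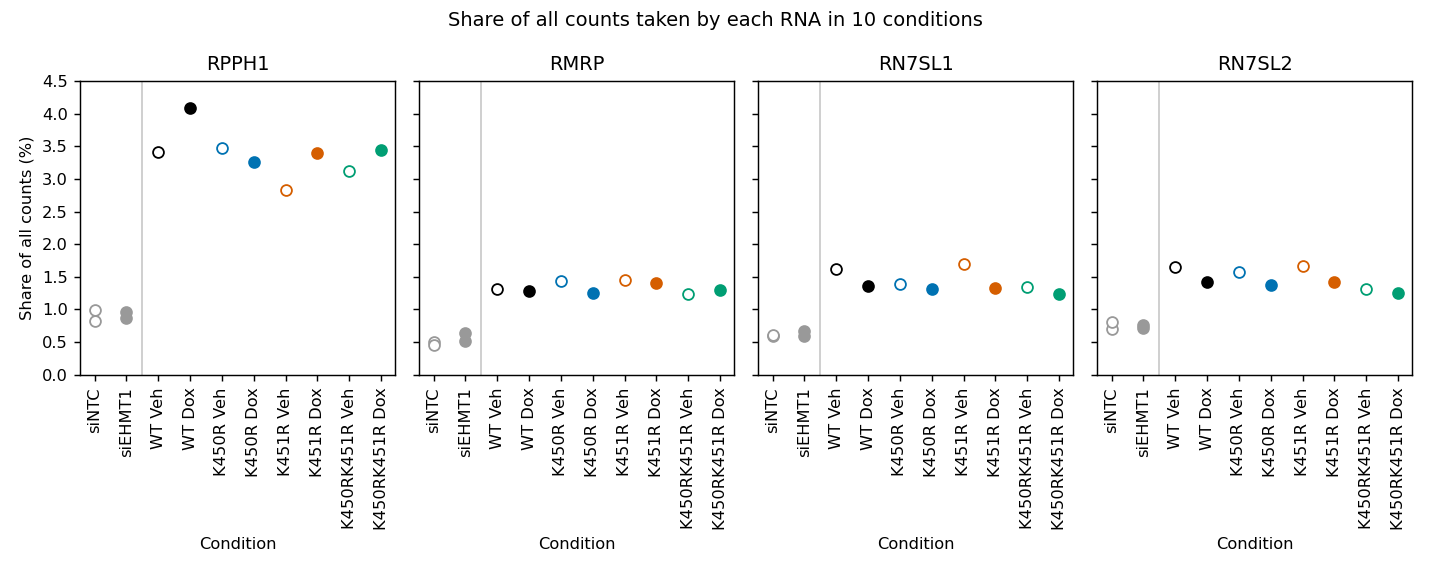
Share of all counts (y axis, %) taken by each RNA in 10 conditions (x axis). Grey points are the 2 samples of each siRNA group and coloured points the 8 stable-line conditions (2 summed columns each), with filled points for siEHMT1 and Dox. All 4 RNAs lie higher in the stable lines, where RPPH1 reaches 2.83% to 4.09%.

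Ordered by share, the stable-line conditions are single samples, so neighbours could be separated only against counting error (95% Wilson intervals, which do not cover variation between cultures). The intervals of WT Veh and K451R Dox overlapped for RPPH1, 1 of 7 neighbouring pairs. No neighbouring pair overlapped for RMRP, and 2 of 7 did for RN7SL1 and for RN7SL2. Levels of different genes can be compared only per length. Per kilobase of the spans given above, medians in the stable lines over the 8 conditions were 53280 CPM (without TMM) per kilobase for RPPH1, 49450 for RMRP, 45511 for RN7SL1 and 47765 for RN7SL2. In the siRNA samples the medians were 14387, 19290, 20279 and 24996. The RPPH1 row includes bases upstream of the part that aligns to RPPH1-3P, and a shorter span would raise its value, so no order of RPPH1 and the others is read from these. The values of RN7SL1 and RN7SL2 depend on how reads with several matches were counted.

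Silencing of EHMT1 was compared with siNTC to ask which genes respond to its loss. None of the 4 RNAs passed an adjusted p of 0.05, at which 0.131% of the 14532 genes tested were called (0.0619% higher and 0.0688% lower). None of the 4 had an unadjusted p under 0.05 in this edgeR fit, where 1392 genes did. RMRP had unadjusted values of 0.0345 in DESeq2, 0.0148 in limma-voom, 0.0053 in edgeR with no filter and 0.0477 in edgeR without siNTC 2, each fitted over all genes. RPPH1 was at 7609 and 10894 CPM with siNTC and at 9463 and 8664 CPM with siEHMT1. Both siEHMT1 samples lay between the siNTC samples. The log2 fold change was −0.03 (95% interval −0.40 to 0.34, adjusted p = 0.982, edgeR quasi-likelihood test, Benjamini-Hochberg adjusted). RMRP was at 4696 and 4995 CPM with siNTC and at 5055 and 6358 CPM with siEHMT1. The log2 fold change of RMRP was 0.24 (95% interval −0.06 to 0.53, adjusted p = 0.627, same edgeR test). It was 0.39 without siEHMT1 1 and 0.064 without siEHMT1 2.

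RN7SL1 was at 5451 and 6672 CPM with siNTC and at 6647 and 5940 CPM with siEHMT1, and RN7SL2 was at 6576 and 8966 against 7526 and 7136 CPM. For both genes the siEHMT1 samples lay between the siNTC samples. The log2 fold change was 0.05 for RN7SL1 (95% interval −0.25 to 0.36, adjusted p = 0.948 from edgeR) and −0.08 for RN7SL2 (95% interval −0.43 to 0.26, adjusted p = 0.917 from edgeR). The sum of both genes was 12027 and 15639 CPM with siNTC and 14173 and 13077 CPM with siEHMT1. Without siNTC 2, the sample that stood apart, the log2 fold change was 0.25 for RPPH1, 0.28 for RMRP, 0.21 for RN7SL1 and 0.16 for RN7SL2, again with no call. The intervals leave room for changes of this size in either direction for RPPH1, RN7SL1 and RN7SL2. VWF, listed as an endothelial marker, was at 9.93 and 6.97 CPM (without TMM) with siNTC and at 16.2 and 15.8 with siEHMT1, while CDH5 had no count. Its part in these values was not tested.

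Doxycycline was compared with vehicle over the 4 stable lines, with the line as a block, to ask what induction of EHMT1 changes. RN7SL1 and RN7SL2 fell, while RMRP and RPPH1 were not called. Over 14105 genes tested, 2.10% were called, 0.603% higher and 1.50% lower. RN7SL1 went from 16938 CPM with Veh to 13884 with Dox in WT, from 14499 to 13433 in K450R, from 17442 to 12525 in K451R and from 13443 to 11336 in K450RK451R. It was lower with Dox in 4 of 4 lines, although the ranges of the Veh and Dox levels overlapped. The level of RN7SL1 fell by 0.28 in log2 units (SE 0.061, adjusted p = 0.0107, edgeR quasi-likelihood test, Benjamini-Hochberg adjusted).

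RN7SL2 went from 17257 to 14394 CPM in WT, from 16275 to 13973 in K450R, from 17131 to 13412 in K451R and from 13197 to 11471 in K450RK451R. It was also lower in every line and fell by 0.26 in log2 units (SE 0.057, adjusted p = 0.0112, same edgeR test). For the sum of both genes the log2 ratio of Dox to Veh was −0.27 in WT, −0.17 in K450R, −0.41 in K451R and −0.22 in K450RK451R. The direction of both genes was the same under every scaling run, but the size was not. On shares, the log2 ratio of Dox to Veh for RN7SL1 was −0.25 in WT, −0.085 in K450R, −0.35 in K451R and −0.11 in K450RK451R. For RN7SL2 it was −0.23, −0.20, −0.22 and −0.066 in the same order. Neither call held in every set of lines. Without K451R the adjusted p from edgeR was 0.242 for RN7SL1 and 0.188 for RN7SL2, without K450RK451R it was 0.102 and 0.111, and without K450R that of RN7SL2 was 0.0931. With no block for the line it was 0.365 for RN7SL1 and 0.402 for RN7SL2.

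RMRP went from 13750 to 13048 CPM in WT, from 14917 to 12755 in K450R, from 15010 to 13165 in K451R and from 12389 to 11815 in K450RK451R. The values were lower with Dox in each line, but the log2 fold change of −0.14 did not pass the test (95% interval −0.26 to −0.02, adjusted p = 0.233 from edgeR). Without WT the value was −0.16 and passed (adjusted p = 0.0228 from edgeR), as it did with limma-voom (0.0415) and with no filter on low counts (0.000993). As a share of all counts, which has no further scaling, RMRP was higher with Dox in K450RK451R (1.24% against 1.29%) and lower in the other 3 lines. RPPH1 went from 35608 to 41698 CPM in WT, from 36079 to 33201 in K450R, from 29168 to 31924 in K451R and from 31352 to 31443 in K450RK451R. The lines moved in different directions, and the log2 fold change was 0.06 (95% interval −0.07 to 0.19, adjusted p = 0.731 from edgeR). It was 0.14 with library sizes alone and ran from 0.0045 without WT to 0.12 without K450R, with no call. On shares, the log2 ratio of Dox to Veh for RPPH1 was 0.26 in WT, −0.10 in K450R, 0.26 in K451R and 0.14 in K450RK451R. In bulk RNA, fewer cells of a kind and less RNA per cell cannot be told apart. The summed level of the LNCaP markers was 11479 to 11864 CPM with Veh and 12019 to 13080 CPM with Dox, both without TMM. These ranges are not on the scale of the levels above. TMM factors ran from 0.957 in WT Veh to 1.096 in K450RK451R Dox. The part of the marker level in these values was not tested.

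**Figure D3:**
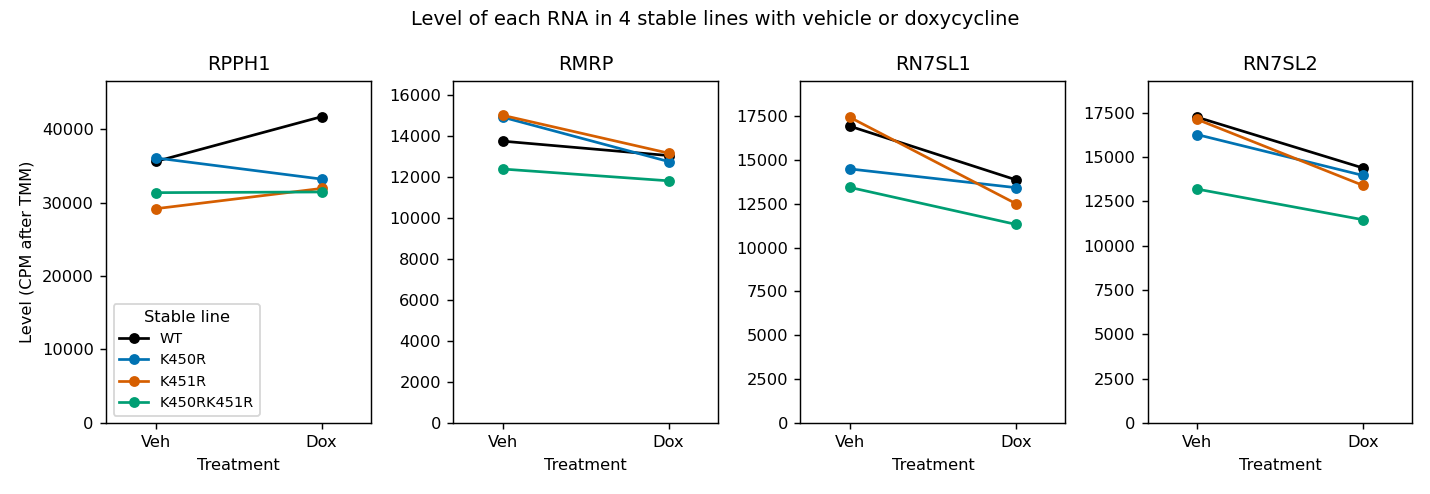
Level of each RNA (y axis, CPM after TMM, from 0, with a scale of its own for each RNA) in the 4 stable lines with Veh or Dox (x axis). Lines join the 2 conditions of a stable line, each a single sample of 2 summed columns. RN7SL1 and RN7SL2 are lower with Dox in 4 of 4 lines, and RPPH1 is lower in K450R but higher in WT and K451R.

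**Figure D4:**
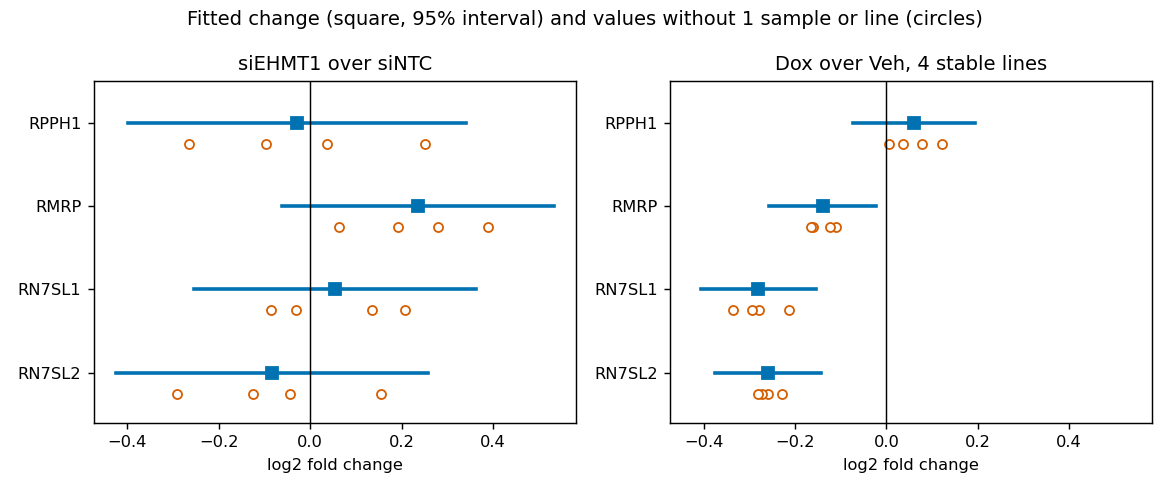
Fitted log2 fold change (squares, with 95% intervals as bars) of each RNA for siEHMT1 over siNTC (left) and Dox over Veh (right), with the values left when each siRNA sample or stable line is left out (circles). With siEHMT1 the circles of RPPH1, RN7SL1 and RN7SL2 lie on both sides of 0, and with Dox those of RN7SL1 lie between −0.34 and −0.21 and those of RN7SL2 between −0.28 and −0.23.

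The 4 stable lines were also compared with each other, with treatment as a term. The 1 Veh and 1 Dox sample of a line served as its samples once treatment was fitted. The p-values thus do not measure the spread between replicate cultures of a line. RN7SL2 differed among the lines, and RPPH1, RN7SL1 and RMRP were not called, where 3.05% of the genes tested were. Relative to WT, the log2 level of RN7SL2 was −0.06 in K450R, −0.06 in K451R and −0.36 in K450RK451R (adjusted p = 0.0277 over the 3 differences, edgeR quasi-likelihood test, Benjamini-Hochberg adjusted). The call was lost when any K450R, K451R or K450RK451R sample was left out (adjusted p from edgeR between 0.0522 and 0.411) and with library sizes alone as scaling (0.0529). RN7SL1 had a similar pattern, at −0.13, −0.05 and −0.31 (adjusted p = 0.122 from edgeR). The split of reads between RN7SL1 and RN7SL2 is uncertain, so a call of 1 alone is not read as a difference between them. With Veh their sum was 26641 CPM in K450RK451R and 30774 to 34573 CPM in the other lines. With Dox it was 22807 CPM in K450RK451R and 25937 to 28278 CPM in the others. After TMM scaling, K450RK451R had the lowest level of RN7SL1, RN7SL2 and RMRP with both Veh and Dox. As a share of all counts, RMRP with Dox was lowest in K450R (1.25%), beside 1.29% in K450RK451R. RPPH1 was at −0.15 in K450R, −0.34 in K451R and −0.30 in K450RK451R relative to WT (adjusted p = 0.0868 from edgeR), and RMRP at 0.04, 0.07 and −0.15 (adjusted p = 0.347 from edgeR). The difference of RPPH1 passed with DESeq2 (adjusted p = 0.0128) and limma-voom (0.00193), and without WT Veh its range over the lines was 0.45 (adjusted p = 5.91e-05 from edgeR). RN7SL1 and RMRP passed without WT Veh (adjusted p = 0.00956 and 0.0253 from edgeR) and without WT Dox (0.0138 and 0.0424).

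The balance within the group was described by ratios of counts. RN7SL2 over RN7SL1, 2 genes of equal length, was 1.21 and 1.34 after siNTC, 1.13 and 1.20 after siEHMT1, and 0.982 to 1.12 with Veh and 1.01 to 1.07 with Dox. RPPH1 over RMRP, which is not a ratio of molecules since the genes differ in length, was 1.94 to 2.59 with Veh and 2.43 to 3.20 with Dox. This ratio was higher with Dox in each of the 4 lines, from 2.59 to 3.20 in WT, from 2.42 to 2.60 in K450R, from 1.94 to 2.43 in K451R and from 2.53 to 2.66 in K450RK451R. It was not tested. Among 848 rows for 7SL genes and pseudogenes, RN7SL1 and RN7SL2 held 98.5% of the 7SL counts in the siRNA samples and 99.1% in the stable lines. RN7SL3 held 390 and 1952 counts in all, RN7SL4P held 1833 and 6805, and RN7SL151P, chosen after its values were seen, held 2046 and 886.

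The proteins that work with these RNAs were examined as lists. Of the proteins of RNase P and MRP, 10 of 11 were tested and none was called with siEHMT1 (median log2 fold change 0.04, beside −0.0021 for all genes tested) or with Dox (0.10, beside 0.0050). None of the 8 SRP proteins and receptor subunits was called in either comparison (medians −0.11 and −0.0087, the latter above 0 with upper-quartile scaling and with library sizes with or without mitochondrial rRNA). Of 13 RNA polymerase III subunits and 19 of its factors, none was called in either comparison (medians −0.03 and −0.0029 with siEHMT1, 0.13 and −0.02 with Dox, the last above 0 with library sizes with or without mitochondrial rRNA). Of 5 listed proteins that bind short RNAs of RNA polymerase III, 1 was called with Dox. This was MEPCE, which caps the 5′ end of 7SK. It rose by 0.35 in log2 units (adjusted p = 0.0144 from edgeR, not called by DESeq2), from 38.7 ± 5.48 CPM to 49.1 ± 6.04 CPM (SD, n = 4 lines each). With siEHMT1 none of the 5 was called (median −0.17).

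Among other short RNAs of RNA polymerase III, 1 of 15 listed, RN7SK, passed the filter on low counts in the stable lines and 3 did in the siRNA samples, none of them called (median 0.99). 7SK, which holds the elongation factor P-TEFb inactive, stood at −0.20 in log2 units with Dox, which did not pass the test (edgeR, adjusted p = 0.0629). With all 4 lines kept, it was called in 6 of 11 other settings, DESeq2 and limma-voom among them. 7SK differed among the lines with a log2 range of 0.30 (adjusted p = 0.0232 from edgeR). That call was lost in 6 of 8 fits with 1 sample left out (ranges 0.29 to 0.32) and in 1 of 8 other settings. Of 27 other 7SL rows tested with Dox, RN7SL4P fell by 0.42 in log2 units (adjusted p = 0.00213 from edgeR), and their median was −0.14. Whether the 7SL pseudogene rows share reads with RN7SL1 and RN7SL2 was not tested. Small nucleolar and Cajal body RNAs, many of which guide modification of other RNAs, gave calls in 1 direction with Dox. Of 14 SNORD rows 4 were called lower, of 26 SNORA rows 2 and of 12 SCARNA rows 4, where 1.50% of all genes tested were. The medians were −0.32, −0.46 and −0.40 on the log2 scale. None was called higher, although 1 SNORD, 2 SNORA and 1 SCARNA row had a log2 fold change above 0. The medians stayed below 0 under each scaling run, but 2 SNORD rows and 1 SNORA row were called with DESeq2, and 3 and 1 with library sizes alone. SCARNA21 fell from 42.9 ± 7.93 CPM to 27.0 ± 4.80 CPM (SD, n = 4 lines each), or by −0.67 in log2 units (adjusted p = 3.68e-05, edgeR). SCARNA7, SNORA71A and SNORD3A fell by 0.57, 0.56 and 0.44. The SNORD3A level ran from 414.6 to 1046 CPM over the Veh samples and from 380.6 to 462.5 CPM over the Dox samples, so its groups overlapped. With siEHMT1 no row of these 3 lists was called, and their medians were 0.28, 0.47 and 0.18. Other structured RNAs made by RNA polymerase II, among them the spliceosomal RNAs and telomerase RNA, gave no call with siEHMT1 (6 tested, median 0.23) or Dox (5 tested, median −0.17). Among the lines, TERC (log2 range 0.44), SCARNA2 (0.35) and RNU4-2 (0.53) differed, as did 3 of 14 SNORD rows, 1 of 26 SNORA rows and 6 of 12 SCARNA rows, SCARNA2 among them. Over all genes tested 3.05% were called and the median range was 0.30.

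The genes beside RPPH1 and RMRP were not called in any comparison. PARP2, a DNA repair enzyme whose gene starts within the RPPH1 span, had a log2 fold change of 0.05 with siEHMT1 and −0.13 with Dox. CCDC107 had values of 0.44 and −0.20. The genes most like each RNA were found by the Pearson correlation of log2 CPM over the 12 samples, after subtracting the mean of each table, among 8594 genes whose mean count reached 100 in both tables. These points share libraries and scaling, and the correlations are descriptions without a p. RN7SL1 and RN7SL2 had an r of 0.92 with each other. The nearest genes other than the 4 RNAs were DERL2, SCARNA21 and TSNAX for RN7SL1 (0.95, 0.93 and 0.92) and DERL2, DPCD and HNRNPA1 for RN7SL2 (0.98, 0.93 and 0.90). Of these, the 3 for RN7SL1 and the first 2 for RN7SL2 were nearer to it over the 12 samples than the other 7SL gene was. Over the 8 stable-line conditions alone, RN7SL1 and RN7SL2 had an r of 0.95 with each other. There DERL2 was nearer to both (0.96 and 0.98), as was HNRNPA1 to RN7SL2 (0.98). SCARNA21 and TSNAX were less near to RN7SL1 (0.93 and 0.91), and DPCD to RN7SL2 (0.915). RMRP had an r of 0.50 with RN7SL1 and 0.51 with RN7SL2 (0.79 and 0.90 over the 8 stable-line conditions alone). Over the 12 samples it was nearest to CHTF18, NDUFAF7 and AHSA2 (0.90, 0.89 and 0.88). These 3 had 0.86, 0.81 and 0.86 over the 8 stable-line conditions alone, each below RN7SL2. RPPH1 had an r of 0.02 with RMRP, 0.27 with RN7SL1 and 0.45 with RN7SL2 (0.04, 0.03 and 0.18 over the 8 stable-line conditions alone), and was nearest to PGAM1, MCCC1 and TERF2IP (0.86, 0.86 and 0.85).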

How the data were processed

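RNA-seq of LNCaP cells was analysed from 2 tables of raw counts that the authors deposited, the number of reads per Ensembl gene without normalization. Per the study's methods, total RNA was extracted with a column kit and sequenced as stranded single-end libraries. The submitters' processing notes name FastQC 0.11.9, STAR 2.7.2 and featureCounts 1.6.4 on hg19. The annotation release, the use of strand and the handling of reads with several matches are not given in the sources used here. Mitochondrial rRNA is part of the total behind every share.

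The 2 columns of each stable-line condition were summed, and the 4 lines served as replicates of the Dox effect. Genes were filtered with edgeR's default and scaled by TMM, and tested with the quasi-likelihood method of edgeR 4.0.16 (R 4.3.3). Standard errors were taken as the log2 fold change over the square root of F, and intervals use the degrees of freedom of that test. DESeq2 1.42.0, limma-voom (limma 3.58.1), other scalings, no filter, other blocks and leaving out samples were alternatives, and the scripts were tested on simulated data. Library sizes without mitochondrial rRNA, the legacy edgeR method, TMM before the filter, leaving out conditions in the line comparison and the share without mitochondrial rRNA were chosen after seeing the data. Sequences were read from GRCh37 and matched with BLAST+ 2.17.0+. The sequences of the 7SL genes themselves and 1 listed gene are not reported here.

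The 4 RNAs and the gene lists were chosen with earlier results of these data known. Genes named from a list are those with an adjusted p under 0.05, at most the 5 with the smallest p per list and comparison. Intervals of shares are 95% Wilson intervals and, without molecular identifiers, cover counting error only.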

Additional observations from a re-analysis of the deposited data

Results flagged for a closer look

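RPPH1 moved in opposite directions with Dox in different stable lines. The log2 ratio of Dox to Veh after TMM scaling was 0.23 in WT, 0.13 in K451R and 0.0042 in K450RK451R, but −0.12 in K450R. Each value compares 1 Veh with 1 Dox sample, and the difference between the lines was not tested. In 26 sets of 4 values (levels, shares, log2 ratios and count ratios of the 4 RNAs), no value lay far from the rest by Dixon's criterion, which chance meets in about 1 of 20 sets. The nearest to it was the RPPH1 level in WT Dox, 41698 CPM beside 31443 to 33201 CPM in the other 3 Dox samples, just short of the limit.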

How the results depend on the processing

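With siEHMT1 no alternative called any of the 4 RNAs. The count of called genes was 12 with DESeq2, 12 with no filter, 42 with TMM before the filter, and 38 to 111 with each sample left out. The replicate numbers did not pair the samples (Pearson r −0.0052 over 14532 genes, 2 pairs), and the replicate block gave 127 genes and no call among the 4 RNAs. With library sizes alone the log2 fold change was 0.023 for RPPH1 and 0.0088 for RN7SK. Leaving out 1 sample gave −0.27 to 0.25 for RPPH1, −0.085 to 0.21 for RN7SL1, −0.29 to 0.16 for RN7SL2, 0.064 to 0.39 for RMRP and −0.12 to 0.069 for RN7SK. The cause was not tested.

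With Dox the count of called genes was 140 with DESeq2, 4 with no block for the line and 114 to 501 with each line left out. Calls split into 323 higher and 108 lower genes with library sizes alone, 116 and 182 with upper-quartile scaling, and 116 and 128 without mitochondrial rRNA in the library sizes, against 85 and 211. With no line block RN7SL1 stood at −0.28 and RN7SL2 at −0.26, and neither was called. Leaving out 1 line gave −0.34 to −0.21 for RN7SL1, −0.28 to −0.23 for RN7SL2 and −0.17 to −0.11 for RMRP. RMRP passed with limma-voom (−0.14) and no filter (−0.13).

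Among the lines the count was 239 with DESeq2 and 269 to 653 with each sample left out. RPPH1 passed with DESeq2 (0.34), limma-voom (0.34), no filter (0.35), the legacy method (0.34) and TMM before the filter (0.35), RMRP (0.22 and 0.22) and RN7SL1 (0.31 and 0.32) with limma-voom and no filter, and RN7SL2 (0.26) was lost with library sizes alone. With 1 sample left out the ranges were 0.22 to 0.45 for RPPH1, 0.17 to 0.26 for RMRP, 0.30 to 0.39 for RN7SL1 and 0.33 to 0.40 for RN7SL2.

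Without mitochondrial rRNA and the 2 pseudogenes, the mean shares of RPPH1, RMRP, RN7SL1 and RN7SL2 were 1.27%, 0.734%, 0.859% and 1.05% in the siRNA samples and 3.82%, 1.51%, 1.603% and 1.65% in the stable lines.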
